A study of Mus musculus with 8 samples.

Results

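BAFF and APRIL are a pair of secreted TNF family ligands that keep B cells and antibody-secreting plasma cells alive, and the 5 genes described here are these ligands and their receptors. Tnfsf13b encodes BAFF and Tnfsf13 encodes APRIL. Tnfrsf13c encodes BAFF-R, Tnfrsf13b encodes TACI and Tnfrsf17 encodes BCMA. The genes were taken by symbol, or by Entrez ID for older names, from an array with 56605 gene probes that carried 26866 gene symbols. Of the 5 genes, 4 had a probe, 9 probes in all, and 1, Tnfsf13, had none listed under its own symbol or Entrez ID.

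BAFF binds all the receptors, whereas APRIL binds TACI and BCMA. BAFF-R is the receptor that naive B cells need to survive, TACI restrains B cell numbers and promotes class switching, and BCMA supports long-lived plasma cells. The ligands are made mainly by macrophages, dendritic cells, neutrophils and some stromal cells, and interferons raise BAFF. An excess of BAFF causes a Sjögren-like disease in mice and BAFF is raised in patients with Sjögren's syndrome.

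Liver RNA came from female mice of the NFS/sld strain, whose salivary glands become autoimmune targets once the thymus is lost early in life. The Tx group, 4 arrays, held RNA of mice that lost the thymus to surgery on postnatal day 3, with the liver taken 8 weeks later. The nonTx group, 4 arrays, held RNA of mice that kept the thymus. Neither a sham operation nor the age of the nonTx mice is stated in the labels, and the replicates are called independent without being tied to single animals, so the p-values rest on the spread among these arrays, which may be technical. Each array was a 1-colour Agilent gene expression array. All 8 arrays lay on 1 slide that was scanned once, with nonTx in one part of the slide and Tx in the other, so position on the slide and group cannot be told apart.

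The signal of each array was scaled to its 75th percentile, which lay between 224.8 and 330.0 intensity units, and 51.1% to 57.1% of probes were well above background by the scanner software's flag. The lowest signal that carried this flag was 12.2 to 16.1 units, depending on the array, and signals near that range have little to tell about a difference. The tissue matched its label: of the 10 hepatocyte marker genes 9 were measured, and Ttr, the carrier of thyroxine and retinol-binding protein, read 60420 to 106131 units. T cell marker genes were mostly lower in Tx, 9 of 12, with a median log2 difference of -0.45 that was -0.04 with normexp background correction. In whole liver RNA, fewer cells of a type and less RNA per cell cannot be told apart.

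Probe sequences were not used here, and the regulatory sequences of the genes themselves are shown, from RefSeq on build GRCm38.p6. The reason for showing the first pair is the missing APRIL probe. The Tnfsf13 gene model lies inside that of Tnfsfm13, a read-through gene that joins the neighbouring Tnfsf12 (TWEAK) to the receptor-binding part of APRIL and is known as TWE-PRIL, and both models end at the same place. Each has its own start, and the 100 bases just before each start are different. The Tnfsf13 stretch is chr11:69685555-69685654 and the Tnfsfm13 stretch is chr11:69696099-69696198, both on the minus strand and written 5′ to 3′, with no capitals because neither held a match to the motifs searched.
Tnfsf13: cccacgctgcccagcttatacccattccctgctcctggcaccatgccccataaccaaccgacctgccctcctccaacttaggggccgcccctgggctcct
Tnfsfm13: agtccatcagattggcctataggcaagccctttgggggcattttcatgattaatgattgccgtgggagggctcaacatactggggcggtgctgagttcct

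Because interferons induce BAFF, the windows from 250 bases before to 50 bases after each start were searched on both strands for the interferon-stimulated response element, ISRE, a GAAA followed after any pair of bases by another GAAA, and for the NF-kB site. The GAS element, TTCNNNGAA with N any base, was searched as well. All 5 genes matched by symbol and had 6 windows, of which 2 held an ISRE match, 0 an NF-kB match and 0 a GAS match. Among all 32851 windows of 300 bases, 3.44% held an ISRE match, 8.46% an NF-kB match and 8.30% a GAS match. The matches lay at chr8:10006607-10006636 on the plus strand, where the match begins at position -16 relative to a start of Tnfsf13b, and at chr16:11313698-11313727 on the plus strand, where it begins at position -101 relative to the start of Tnfrsf17. The 30 bases around each are written 5′ to 3′ with the ISRE match in capitals, which in Tnfrsf17 reads on the opposite strand. No NF-kB match overlapped them. A match describes the letters and not the use of a site.
Tnfsf13b: tacaaaaactGAAAGTGAAAtgcggaaggc
Tnfrsf17: aaataggtggTTTCTGTTTCaggaatagtt

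No ligand or receptor of the system passed the test between Tx and nonTx liver. The test took probes that stood well above background on 3 or more of the 4 arrays in either group, and 4 of the 9 probes qualified, from 3 genes: Tnfsf13b, Tnfrsf13b and Tnfrsf13c. By limma with Benjamini-Hochberg adjustment over all 30955 tested probes and a threshold of 0.05, 0 of the 4 passed, and 0% of all tested probes did, so this count says nothing particular to these genes. At an unadjusted p under 0.05 the count was 0 of 4, against 13.2% of all tested probes, and by an exact two-sided permutation test over the 8 arrays it was again 0 of 4. The smallest p that 4 arrays against 4 allow is 0.0286. Among the 4 tested probes, 0 had Tx arrays all above or all below the nonTx arrays, against 4.47% of all tested probes with Tx above and 3.4% with Tx below. The count over all probes depended on single arrays: it was 188 without Tx replicate 2, 3 without Tx replicate 3 or Tx replicate 4, 1 without Tx replicate 1, nonTx replicate 2 or nonTx replicate 3, and 0 for the other arrays, while the count over these 4 probes was 0 each time.

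**Figure D1:**
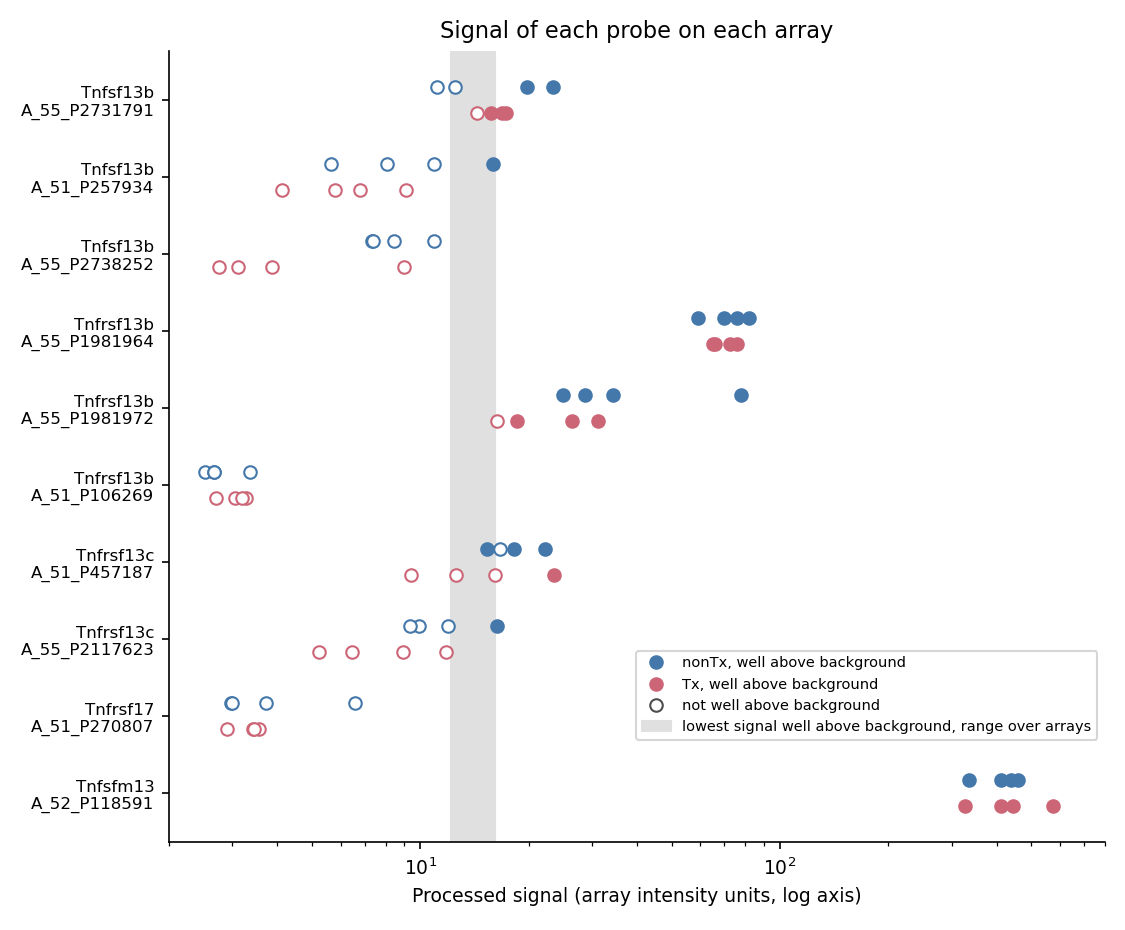
Processed signal of the 9 probes of the BAFF and APRIL genes and of the read-through gene Tnfsfm13 on each of the 8 arrays, on a log axis in array intensity units; blue points are nonTx, red points are Tx, open points are not well above background, and the grey band spans the lowest flagged signal per array, 12.2 to 16.1. Most probes have arrays in or left of the band, the Tnfrsf13b probe A_55_P1981964 sits between 59.1 and 82.0, and the colours overlap on every line.

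Tnfsf13b, the BAFF gene, was barely above background in these livers. Its brightest probe, A_55_P2731791, made for a predicted transcript, read 23.4, 11.1, 12.5 and 19.8 units in nonTx replicates 1 to 4 and 17.3, 14.3, 15.7 and 16.9 units in Tx replicates 1 to 4. The Tx arrays lay between the nonTx arrays on either side, and the probe was well above background on 2 of 4 nonTx and 3 of 4 Tx arrays. It thus entered the test through its Tx arrays, which favours a higher value in Tx. The scaled log2 difference of Tx minus nonTx was 0.16 ± 0.28 (SE, n = 4 arrays per group), or 1.12-fold, with a 95% interval from -0.46 to 0.79 (limma adjusted p = 0.806; exact permutation p = 0.571). The spread on the scaled log2 level was 0.49 (SD) among nonTx and 0.23 among Tx arrays.

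The other 2 probes of Tnfsf13b were not tested. The probe for the RefSeq transcript, A_51_P257934, read 8.06, 5.66, 10.9 and 15.9 units in nonTx replicates 1 to 4 and 6.81, 9.1, 5.77 and 4.12 units in Tx replicates 1 to 4. It was well above background only on nonTx replicate 4. The third probe, A_55_P2738252, made for a cDNA clone, read 7.31, 8.44, 7.36 and 10.9 units in nonTx and 3.11, 8.98, 2.75 and 3.87 units in Tx. It was not well above background on any of the 8 arrays. On this probe 3 Tx arrays read lower than every nonTx array, and Tx replicate 2 lay among them, all at signals below those the scanner software tells from background.

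APRIL could not be read on its own. The nearest probe, A_52_P118591, carries the name of the read-through gene Tnfsfm13. Whether it also reads Tnfsf13 transcripts, which share the end of the gene model, is not settled by the files, so its values stand for the locus and not for APRIL. It read 412.9, 334.7, 438.8 and 459.4 units in nonTx replicates 1 to 4 and 574.8, 444.1, 326.8 and 411.2 units in Tx replicates 1 to 4. It was well above background on all 8 arrays, and the groups overlapped. The highest and the lowest reading were both in Tx before scaling, whereas after scaling nonTx replicate 2 was lowest. The scaled log2 difference was 0.23 ± 0.13, or 1.18-fold, with a 95% interval from -0.05 to 0.51 (limma adjusted p = 0.433; exact permutation p = 0.143). Tnfsf12, the TWEAK ligand gene just upstream, differed by 0.07 ± 0.13 with signals from 100.1 to 179.1 units. Tnfsf13os, a noncoding gene that overlaps the locus on the other strand, differed by -0.23 ± 0.43, and nonTx replicate 1 read 84.3 units there against 16.3 to 39.6 on the other arrays.

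Tnfrsf13b, the gene of the TACI receptor, was the only gene of the set with a probe well above background on all 8 arrays. That probe, A_55_P1981964, made for an Ensembl transcript, read 82.0, 70.0, 59.1 and 76.1 units in nonTx replicates 1 to 4 and 75.8, 65.9, 65.2 and 72.6 units in Tx replicates 1 to 4. All Tx signals fell inside the nonTx range before scaling, and after scaling Tx replicate 4 was the highest of the 8. The scaled log2 difference was 0.13 ± 0.15, or 1.09-fold, with a 95% interval from -0.22 to 0.47 (limma adjusted p = 0.719; exact permutation p = 0.429). This interval was the narrowest of the 4 tested probes.

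A different picture came from the next probe of the same gene. A_55_P1981972, made for the RefSeq transcript of Tnfrsf13b, read 28.7, 34.2, 77.7 and 25.0 units in nonTx replicates 1 to 4 and 31.3, 26.3, 18.6 and 16.4 units in Tx replicates 1 to 4. The high reading was nonTx replicate 3, and the groups overlapped. The probe was well above background on 4 of 4 nonTx and 3 of 4 Tx arrays. The scaled log2 difference was -0.57 ± 0.33, or 1.49-fold lower in Tx, with a 95% interval from -1.31 to 0.16 (limma adjusted p = 0.453; exact permutation p = 0.143). Without nonTx replicate 3 it was -0.23, and with normexp background correction it was -0.11. The third probe, A_51_P106269, also made for the RefSeq transcript, read 2.52 to 3.36 units on nonTx and 2.70 to 3.28 units on Tx arrays and none of these readings was well above background.

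The tested probes of Tnfrsf13b ran against each other from array to array. Over the 8 arrays their scaled log2 levels had a Pearson correlation of -0.85, and of -0.69 without nonTx replicate 3; both values describe the same arrays and share the scaling. The log2 ratio of the first probe to the second averaged 0.94 ± 0.93 (SD) in nonTx and 1.64 ± 0.42 in Tx. The difference of 0.70 between the groups did not pass an exact two-sided permutation test (p = 0.229), a comparison chosen after the data were seen. The direction for TACI therefore differed between its tested probes.

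**Figure D2:**
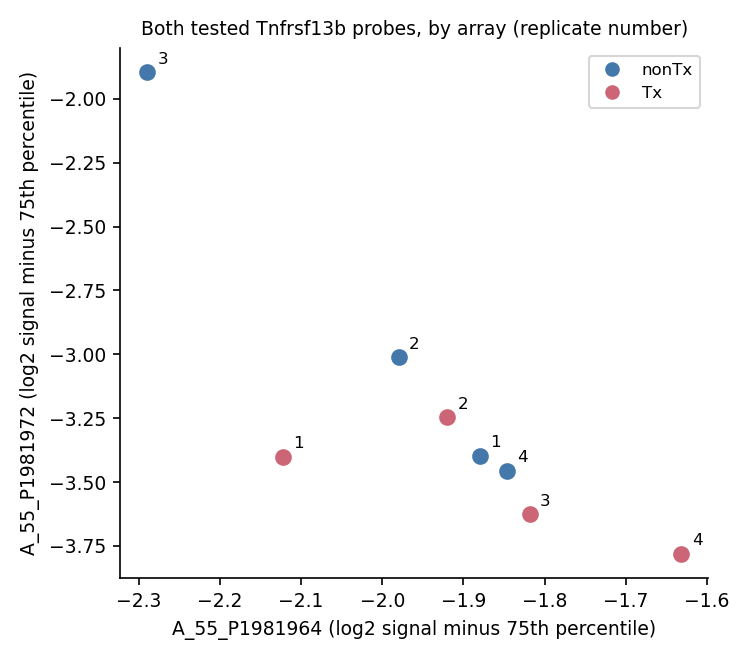
Scaled log2 level (log2 signal minus the array's 75th percentile) of the Tnfrsf13b probe A_55_P1981964 on the horizontal axis against A_55_P1981972 on the vertical axis, one point per array, blue for nonTx and red for Tx, with the replicate number beside it. The points fall from upper left to lower right, r = -0.85, with nonTx replicate 3 alone at the upper left.

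Tnfrsf13c, the gene of BAFF-R, was near background. Its brighter probe, A_51_P457187, read 16.7, 15.3, 22.2 and 18.2 units in nonTx replicates 1 to 4 and 23.5, 16.1, 9.43 and 12.6 units in Tx replicates 1 to 4. It was well above background on 3 of 4 nonTx arrays but only on 1 of 4 Tx arrays, Tx replicate 1. That array read highest of all before scaling, and nonTx replicate 3 was highest after it. The scaled log2 difference was -0.14 ± 0.25, or 1.1-fold lower in Tx, with a 95% interval from -0.69 to 0.41 (limma adjusted p = 0.809; exact permutation p = 0.543). The probe entered the test through its nonTx arrays, which favours a lower value in Tx. The direction turned without Tx replicate 3, to 0.02, and with normexp background correction, to 0.09. The other probe, A_55_P2117623, read 9.94, 12.0, 16.3 and 9.34 units in nonTx and 6.43, 5.23, 8.94 and 11.8 units in Tx, and was well above background only on nonTx replicate 3. No bound on a fold can be given for it, since the nonTx mean lay under the lowest signal well above background in Tx.

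Tnfrsf17, the gene of BCMA, was not detected by its only probe. A_51_P270807 read 3.73, 6.59, 2.97 and 3.00 units in nonTx replicates 1 to 4 and 3.42, 3.56, 2.89 and 3.45 units in Tx replicates 1 to 4. None of these 8 readings was well above background, nonTx replicate 2 read highest, and no difference can be tested at this signal. Of the plasma cell markers beside it, Jchain, which links IgA and IgM into polymers, differed by 1.36 ± 0.22 (2.57-fold higher, limma adjusted p = 0.102) and lay higher on every Tx array than on any nonTx array. Jchain had the largest difference of the 9 plasma cell markers measured, of which 6 were higher and 3 lower. Whether BCMA followed Jchain could not be read from a probe at background.

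**Figure D3:**
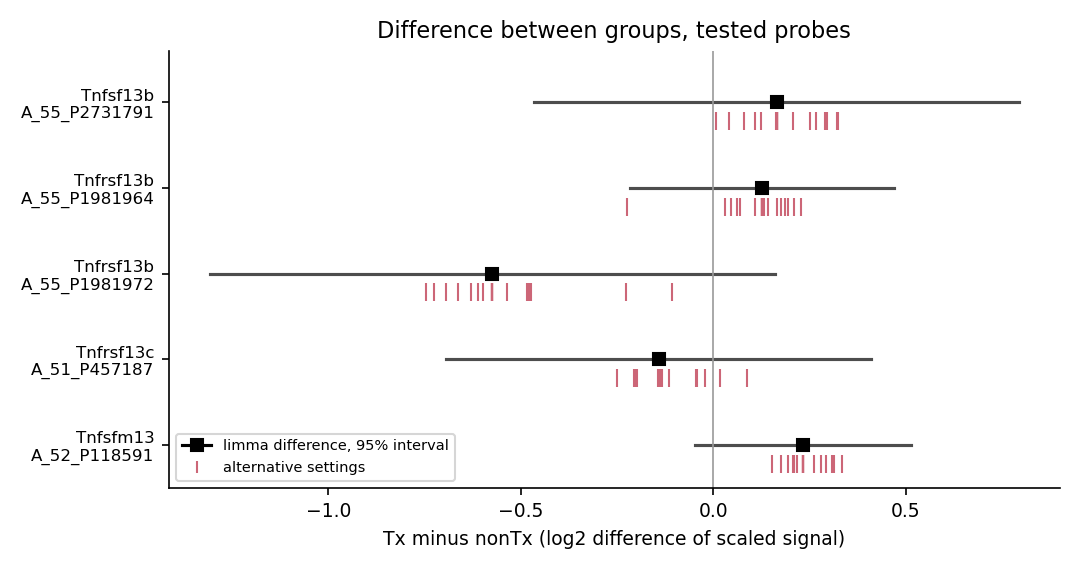
Tx minus nonTx on the scaled log2 scale for the 4 tested probes of the BAFF and APRIL genes and for the read-through gene Tnfsfm13; squares are limma differences, lines their 95% intervals, and red ticks the values under the alternative settings. Every interval spans 0, from the narrow one of Tnfrsf13b probe A_55_P1981964 (-0.22 to 0.47) to the wide one of probe A_55_P1981972 (-1.31 to 0.16).

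The genes that release the ligands, shed the receptors or hold APRIL at the cell surface did not differ beyond the test. Of 12 such genes, all measured, 8 were higher and 4 lower with a median log2 difference of 0.09, against 0.03 over all 16495 genes, and 0 passed; the median was -0.0063 with quantile normalization. Furin, the protease that cuts both ligands free, read 96773 to 149996 units and differed by -0.09 ± 0.12. Whether so bright a probe reads only Furin was not checked. Psenen, a subunit of the gamma-secretase that sheds BCMA, differed by 0.29 ± 0.09 (limma adjusted p = 0.312) and lay above nonTx on every Tx array once scaled. Sdc4, a heparan sulfate proteoglycan of the kind that binds APRIL, differed by 0.25 ± 0.12 (adjusted p = 0.391).

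Signalling genes below the receptors lay slightly lower as a list. The receptors act through TRAF adaptors and the kinase NIK, encoded by Map3k14, on NF-kB. Of 21 genes 20 were measured, 16 lower and 4 higher, with a median of -0.10 and 0 passing; the median was 0.005 when arrays were scaled to their medians, which moved the median of all tested probes from 0.02 to 0.12. Nfkb1, an NF-kB subunit gene, differed by -0.17 ± 0.09 (limma adjusted p = 0.437), with every Tx array below every nonTx array after scaling. Ikbkg, the regulatory subunit of the IKK complex, differed by 0.23 ± 0.13 (adjusted p = 0.432). Map3k14 differed by less than 0.01, with an SE of 0.16. Traf3, the adaptor that holds NIK in check, differed by -0.10 ± 0.11.

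Genes that set the survival of B lineage cells, on which BAFF and APRIL are known to act, are also expressed by other liver cells. Of 8 such genes 6 were measured, 4 higher and 2 lower, with a median of 0.07 that turned sign in 2 of 20 alternatives and 0 passing. The list joined opposite roles, since Bcl2l11, which promotes cell death, was among the lower genes at -0.27 ± 0.32. Mcl1, the survival factor that plasma cells depend on, differed by 0.21 ± 0.07 (limma adjusted p = 0.324). Bcl2, another survival gene, differed by -0.22 ± 0.12 (adjusted p = 0.444).

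Genes of the interferon pathway, which induces BAFF, lay on both sides of 0. The list held Ifng, interferon receptors, transcription factors of the pathway and interferon-stimulated genes, and all 23 were measured, 11 higher and 12 lower, with a median of -0.03 that turned sign in 6 of 20 alternatives and 0 passing. Ifnar2, a chain of the type I interferon receptor, differed by 0.26 ± 0.10 (limma adjusted p = 0.348). Ifng, the interferon gamma gene, read 18.1, 63.8, 13.2 and 16.5 units in nonTx replicates 1 to 4 and 8.65, 12.3, 6.70 and 8.54 units in Tx replicates 1 to 4. It was well above background on all nonTx arrays and on none of the Tx arrays, which gave a fold of at least 1.37 lower in Tx (limma adjusted p = 0.356), and the groups overlapped after scaling. That bound rests on nonTx replicate 2: without it the nonTx mean lay under the Tx bound, so that no fold is left, and the difference moved from -1.19 to -0.67. The gene entered the test through its nonTx signal, a filter that favours a lower value in Tx. The median deviation of the interferon list from its mean over the 8 arrays ran from -0.40 to 0.21 in nonTx and from -0.26 to 0.44 in Tx.

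Of the other ligand and receptor genes of the TNF family that were measured here, none passed the adjusted test by limma. Of 16 ligand genes 9 were measured, 6 of them lower and 3 higher, with a median of -0.32, which turned to 0.03 with normexp background correction and to less than 0.01 when only probes above background on all 8 arrays were kept, and was -0.16 without Tx replicate 4. Tnf itself differed by 0.62 ± 0.14 (1.53-fold higher, limma adjusted p = 0.241), higher on every Tx array after scaling. Ltb, the lymphotoxin beta gene of lymphocytes, differed by -0.40 ± 0.10 (adjusted p = 0.283), lower on every Tx array. Of 25 receptor genes 18 were measured, with a median of -0.01 that turned sign in 4 of 20 alternatives and 0 passing. Tnfrsf18, the receptor GITR of regulatory and activated T cells, differed by -0.75 ± 0.19 (adjusted p = 0.283), and Tnfrsf11b, the decoy receptor osteoprotegerin, by 0.33 ± 0.10 (adjusted p = 0.304).

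B cells and plasma cells are the cells known to carry the receptors. Of 16 B cell markers 13 were measured, 7 higher and 6 lower, with a median of 0.02 that turned sign in 4 of 20 alternatives. Blnk, an adaptor of the B cell receptor, differed by 0.59 ± 0.24 (limma adjusted p = 0.352) and Cr2, the complement receptor that BAFF is known to raise on B cells, by -0.45 ± 0.15 (adjusted p = 0.318). Blnk read 1186 units on Tx replicate 1, against 376 to 559 on the other Tx arrays and 346 to 517 in nonTx. With single arrays left out its difference fell as low as 0.36. Cd79a, Blk and Fcrla were not well above background on enough arrays to be tested. The summed scaled level of the measured B cell markers was 6.78 to 7.49 in nonTx and 6.44 to 9.1 in Tx, and the high Blnk reading of Tx replicate 1 is part of that sum.

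Plasma cell markers had 9 of 11 genes measured, 6 higher and 3 lower, with a median of 0.13. It was 0.051 without Tx replicate 1, 0.22 without nonTx replicate 1 and 0.24 without nonTx replicate 3. Next to Jchain, Mzb1, a chaperone of antibody assembly, differed by 0.53 ± 0.20 (limma adjusted p = 0.344), higher on every Tx array after scaling. The 3 lower genes were Prdm1 at -0.62 ± 0.31, Irf4 at -0.28 ± 0.21 with signals near background, and Xbp1 at -0.09 ± 0.07. The summed scaled level of this list was 237.0 to 249.4 in nonTx and 238.1 to 277.7 in Tx. The probes of Xbp1, with 26161 to 39168 units, and Eaf2, with 17320 to 31691 units, made up most of that sum. Jchain read 111.6 to 420.2 units, so the sum says little about it. The part of the plasma cell list in any value of the BAFF and APRIL genes was not tested.

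Of the cell types that make the ligands, Kupffer cells, the macrophages of the liver, had all 12 markers measured, 9 higher and 3 lower, with a median of 0.05 that turned sign in 4 of 20 alternatives. Cd163, a scavenger receptor for haemoglobin, differed by 0.49 ± 0.24 (limma adjusted p = 0.398) and Cd5l, a secreted macrophage protein, by 0.27 ± 0.16 (adjusted p = 0.469). Dendritic cell markers had 8 of 10 genes measured, 1 higher and 7 lower, with a median of -0.18. This was -0.05 with normexp background correction, -0.28 and -0.30 without Tx replicates 1 and 2, and -0.12 without Tx replicate 3 or 4. Ccr9, a homing receptor of plasmacytoid cells, differed by -0.40 ± 0.20 (adjusted p = 0.400) and Clec9a, a receptor of cross-presenting dendritic cells, by -0.40 ± 0.22 (adjusted p = 0.438). Neutrophil markers had 9 of 12 measured, 7 higher and 2 lower, with a median of 0.20. This was 0.13 without nonTx replicate 3, 0.12 with normexp and 0.42 with only probes above background on all 8 arrays. Retnlg differed by 0.90 ± 0.20 (1.87-fold higher, adjusted p = 0.247) and Csf3r, the receptor for G-CSF, by -0.51 ± 0.17 (adjusted p = 0.313). The ranges of the summed scaled levels were 175.2 to 238.3 in nonTx and 168.2 to 259.8 in Tx for Kupffer cells, 61.4 to 81.6 and 39.4 to 106.6 for dendritic cells, and 127.5 to 169.8 and 76.2 to 125.6 for neutrophils, whose sum was lower on every Tx array although their median was higher. The probe of Siglech, a plasmacytoid cell gene, made up most of the dendritic cell sum with 8538 to 34514 units, and that of Csf3r most of the neutrophil sum with 15228 to 48349 units.

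The median of the 12 T cell markers ran from -0.56 to -0.04 over 20 alternatives. Cd3d, a CD3 subunit, differed by -1.17 ± 0.14 (limma adjusted p = 0.0577) and Cd3g, another, by -0.84 ± 0.17 (adjusted p = 0.18), both lower on every Tx array once scaled. The CD3 complex did not move as a whole. Its chains Cd3e and Cd247 differed by 0.13 ± 0.12 (limma adjusted p = 0.615) and 0.34 ± 0.26 (adjusted p = 0.546), with overlapping groups. The summed scaled level of the 12 T cell markers was 26.8 to 29.8 in nonTx and 27.6 to 41.4 in Tx, so the sum did not follow the median. The probe of Cd4 made up most of that sum with 3968 to 8618 units, whereas Cd3d read 67.5 to 267.0 units. The sum therefore mainly describes the Cd4 probe. Of the hepatocyte markers 5 were higher and 4 lower with a median of less than 0.01; Ttr differed by -0.37 ± 0.07 (adjusted p = 0.185) and Fgb, a fibrinogen chain, by -0.13 ± 0.09 (adjusted p = 0.527).

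**Figure D4:**
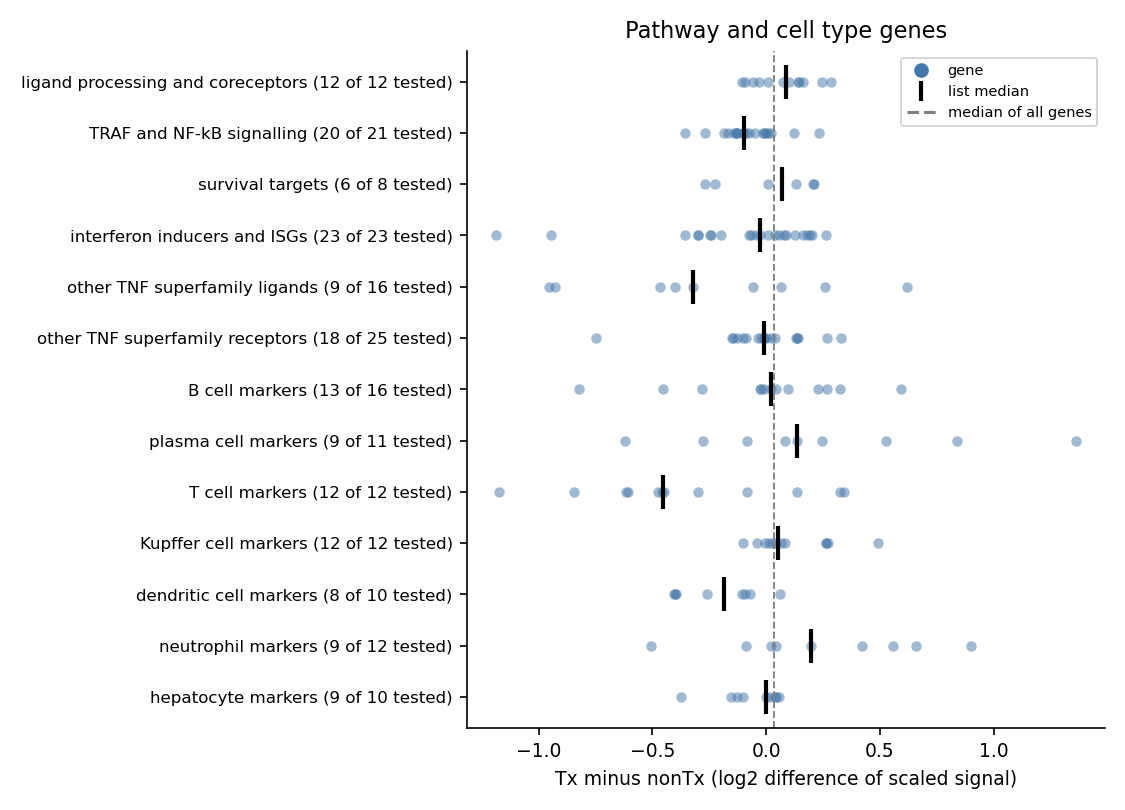
Tx minus nonTx on the scaled log2 scale for each measured gene (blue points) of 13 lists, with the list median (black bar) and the median of all genes, 0.03 (dashed line). The T cell markers (median -0.45) and the other TNF family ligands (median -0.32) lie farthest left at this setting, and no single gene passed the adjusted threshold. Normexp, which draws the differences of dim probes toward 0, gave -0.04 and 0.03.

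The genes whose levels most resembled those of the set over the 8 arrays were found among 16482 others by Pearson correlation of the scaled log2 levels, as a description of 8 arrays that share the scaling. The highest of 16482 values over 8 arrays are large by selection alone, so they are no measure of shared regulation, and they were not tested. For Tnfsf13b the most similar genes were Vps18 (r = 0.97), Esrrb (r = 0.96) and Zbtb48 (r = 0.95). Those of Tnfrsf13b, on its brighter probe, were Dera (r = 0.98), Il16 (r = 0.97) and Mocs1 (r = 0.97). Tnfrsf13c was most like Defb1 (r = 0.96), Tjp1 (r = 0.95) and Hace1 (r = 0.94). With normexp background correction, r for Tnfrsf13c fell to 0.23 with Defb1, -0.36 with Tjp1 and 0.21 with Hace1, and that of Tnfsf13b with Vps18 fell to 0.56, while the Tnfrsf13b values lay between 0.77 and 0.94. Among the genes of the set, the tested probe of Tnfsf13b and the brighter probe of Tnfrsf13b had r = 0.76, and the Tnfrsf13c probe had r = -0.64 with the latter. The signs were opposite for the dimmer tested probe of Tnfrsf13b, with r = -0.73 for the Tnfsf13b probe and r = 0.58 for the Tnfrsf13c probe.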

How the data were processed

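Liver RNA, 0.5 ug per array, was labelled with Cy3 per the labels' protocols. Scanner files give spot intensity after background subtraction and spatial detrending, made by Agilent's Feature Extraction, version 10.7.1.1 per the file headers and 9.1 per the submitters' processing notes. The authors deposited a table with the same intensity values, which matched the scanner files for the 9 probes, and with log2 values they normalized, used as an alternative. Spots with outlier flags were set to missing and spots of a probe averaged. From the log2 intensity each array's 75th percentile was subtracted, and the 30955 probes that passed the filter, of 56605, were fitted in R 4.3.3 by limma 3.58.1 (lmFit, then eBayes with trend), with Benjamini-Hochberg adjustment. Files were read by the data.table package, version 1.17.8. The script was tested on simulated data. The brightest tested probe stood for its gene, and whether that probe reads only this gene was not checked. Symbols were updated through Entrez IDs.

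The 5 genes and the 13 lists (188 genes) were chosen with earlier results of these data known. Genes named beside the 5 were the 2 of each list with the smallest p, since 0 list genes passed, and the 3 most correlated with each of the 5 that had a tested probe. Furin, Map3k14, Traf3, Siglech, the untested B cell markers and the neighbours of Tnfsf13 were named for their role or after their values were seen. The same holds for Bcl2l11, Prdm1, Irf4, Xbp1, Eaf2, Cd4, Cd3e and Cd247. The number of arrays limits the precision. Apart from the stretches shown on GRCm38.p6, gene coordinates are not given, since the headers name another genome build than the reference table. Sequences of the probes were not used. The alternatives were normexp (offset 50, on median spot and background intensity), quantile normalization, other scalings, the authors' values, other filters on dim probes, array weights, robust variance, a fit with no variance trend, outlier spots kept, the replicate number as a block, probes of a gene averaged, an exact permutation test and each array left out in turn. The offset shrinks the log2 differences of probes that are dim beside 50 units, so a smaller normexp value for them is partly built in.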

Additional observations from a re-analysis of the deposited data

How the results depend on the processing

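Of 84 values of the 4 tested probes under the alternatives, 81 kept their direction, 3 turned and 0 passed the threshold. The 81 overstate stability, since part of them could not turn. The other filters on dim probes, robust variance, no variance trend, the replicate block and the permutation test left each difference unchanged. Averaging did so too for a gene with a single tested probe. The Tnfrsf13c difference turned to 0.088 with normexp background correction and to 0.016 without Tx replicate 3, and that of Tnfrsf13b turned to -0.22 when its tested probes were averaged, a value that joins probes of opposite direction. With single arrays left out, the differences ran from 0.0063 to 0.32 for Tnfsf13b, from 0.03 to 0.21 and from -0.75 to -0.23 for the brighter and the dimmer probe of Tnfrsf13b, and from -0.25 to 0.016 for Tnfrsf13c. With no filter on dim probes, the 5 untested probes differed by -0.86 to 0.29, with 0 of them passing (smallest limma adjusted p = 0.43). Tnfsf13os turned to 0.0034 with normexp and ran from -0.53 to 0.18 with single arrays left out, turning without nonTx replicate 1.

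The count of all probes past the threshold, 0 as reported, was 2 with normexp, 6 with median scaling, 1 with the authors' log2 values, 1 with no variance trend, 5 with robust variance and 7 with array weights, and ran from 0 to 188 with single arrays left out. Cd3d passed with median scaling, robust variance, array weights and without Tx replicate 2, and Jchain without Tx replicate 2. The replicate numbers did not pair the arrays: deviations of same-numbered arrays correlated at 0.04, 0.08, 0.10 and -0.01, 2 of 4 nonTx arrays correlated best with their own number, and a replicate block gave 1 call and none among the 4 probes. A slide or scan block was not run, since all arrays shared 1 slide and 1 scan. The medians of the lists that lay within 0.1 of 0 each moved by over 1.5 times when single arrays were left out. Signal near background limits every statement on Tnfsf13b, Tnfrsf13c and Tnfrsf17.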
